A study of Mus musculus with 142 samples.

Results

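The regions described here are the 50 kb windows of mouse chromosome 16 that lie outside 46.5 to 50.5 Mb, the interval around the Dppa domain (mm10 build). They number 1885 of the 49264 windows of the deposited table, 930 on the centromeric side and 955 on the distal side, and the choice used positions only. The study deleted pieces of the Dppa domain from the musculus homolog of F121-9 cells, a hybrid embryonic stem cell line with one musculus and one CAST chromosome set, grown in 2i and LIF, and measured replication timing (RT) by E/L Repli-seq after 2 h of BrdU labelling. RT is log2 of early over late S phase signal, so higher means earlier. The comparison asked here is whether a deletion moved RT elsewhere on its own chromosome more than on chromosomes 15 and 17, which carry none of the deletions.

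Replication in mammalian cells proceeds in large domains that fire at set times in S phase. Early domains hold most active genes and late domains are mostly gene-poor and often contact the nuclear lamina. Early replication control elements (ERCEs) are segments whose loss delays the domain that holds them. The Dppa domain, named after the pluripotency genes Dppa2 and Dppa4, holds segments A, B and C with this activity and a further site, Z. Within them, OSN marks sites bound by OCT4, SOX2 and NANOG, the master factors of pluripotency, and TSS marks a transcription start site.

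In all, 43 clones of 24 deletions had the deletion on musculus and a CAST homolog labelled as control, and these are the groups compared. In C alone the deletions were ∆COSN1, ∆COSN1.2.8k, ∆COSN12, ∆COSN123, ∆CL20k, ∆CR13.4k, ∆CR14.6k and ∆CTSS. A deletion in A was joined to one in C in ∆A.COSN12, ∆A.COSN123, ∆AOSN.COSN12 and ∆AOSN.COSN123. B was altered in ∆BTSS, ∆BTSS.CTSS, ∆BOSN1.COSN123, ∆BOSN12.COSN123, ∆A.BOSN1.COSN123, ∆A.BOSN12.COSN123, ∆A.BOSN12.BTSS.COSN123, ∆AOSN.BOSN12.COSN123, ∆AOSN.B.COSN123 and ∆A.B.COSN123, and Z in ∆Z.AOSN.COSN123 and ∆Z.B.C. In these names A, B or C alone is a whole segment, the digits after OSN number its sites, and CL and CR are left and right pieces of C. Of the 24 deletions, 8 had 1 clone, 14 had 2 clones and 2 had 3 or more, and a clone, not a library, was counted as 1 sample. No clone without any deletion entered the comparison, so each deletion was read against the others. Per the study, ∆COSN12 and ∆COSN123 were made in the ∆COSN1 line, and 1 clone of ∆COSN123 was recovered. Most deletions that join sites in A, B or Z to COSN123 were made in the ∆COSN123 line or from it. ∆BTSS.CTSS was made in the ∆CTSS background and ∆Z.B.C in that of ∆B.C. The main text does not give the parents of ∆A.COSN12, ∆AOSN.COSN12 and ∆AOSN.B.COSN123. Many of the clones thus share a parent, also across deletions, and the tests over clones count them as independent. The table holds RT only, and the embryonic stem cell label was not checked against marker genes.

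The guides that cut the 3 OSN sites of C are shown because most of the deletions used them, and because a guide's letters tell where else on chromosome 16 a similar site lies. Each is printed 5′ to 3′ with its PAM in capitals, taken from the study's guide list, and each matched the GRCm38.p6 reference, whose coordinates are those of mm10, once on these 3 chromosomes.
C-OSN-1-G1: gagtaactcaggcaaaacgtTGG
C-OSN-1-G2: ggaccggccaacctcccttaAGG
C-OSN-2-G1: agagtttgtagaatgctccgGGG
C-OSN-2-G2: acaagcatggtagggcctaaAGG
C-OSN-3-G1: cagcctgttgaattgacagaAGG
C-OSN-3-G2: tctcttccctgtgccgtaagTGG
They lie at chr16:48613166-48613188 (minus strand), chr16:48614737-48614759 (minus), chr16:48608199-48608221 (plus), chr16:48608749-48608771 (minus), chr16:48606304-48606326 (plus) and chr16:48607147-48607169 (plus), all inside the interval left out.

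The 25 guides behind 23 of the deletions (those of ∆COSN1.2.8k were not used here) were searched for sites with up to 3 mismatches in front of an NGG PAM. Outside the interval, chromosome 16 held 8 such sites, each with 3 mismatches, against 6 on chromosome 15 and 10 on chromosome 17. Those of the C OSN and C right-side guides are shown with the mismatched bases in capitals.
C-OSN-1-G1 site: gagtaaAtcaggcaaaacACagg
C-OSN-3-G2 site: tctcttccctgGgccAtaaAggg
C-RIGHT-G1 site: tgaatgtgGgaCacatgcCacgg
C-RIGHT-G2 site: gatggttagcCaCtgAgaacagg
They lie at chr16:8351208-8351230, chr16:40974692-40974714, chr16:44012555-44012577 and chr16:33467755-33467777, all on the plus strand. Over all guides, 37 pairs of a distal chromosome 16 window with such a site and a deletion made with that guide were tested, and none was called (0 of 37, limma), and at the share of all distal pairs, 0.91%, under 1 call would fall in so few pairs. On chromosome 15 it was 0 of 30 pairs and on chromosome 17 it was 1 of 43. Only the window that holds a site was looked up, while the values are smoothed over 300 kb. ∆AOSN.BOSN12.COSN123 was called at 25.05 to 25.15 and 25.3 to 25.4 Mb, around the A-OSN-1-G1 site at chr16:25223472-25223494. Near the C-OSN-1-G1 site it was called at 8.1 to 8.2 Mb, and ∆A.BOSN12.COSN123 at 8.45 to 8.5 Mb. A match of letters is a description and does not say that the site was cut.

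For each window the musculus minus CAST difference of log2(E/L) was taken per clone, and the mean difference of all other deletions was subtracted. A window needed a value in at least 80% of the clones, which left 1251 of the 1885 windows, 1640 on chromosome 15, 1427 on chromosome 17 and 36999 in all. Clone 18 of ∆COSN1.2.8k had no CAST values on chromosome 16, so 42 clones gave values there. In the 6 clones with numbered replicates, the SD between replicates of 1 clone over these windows was 0.139 to 0.235 (median 0.182). In the table, 82 deposited values were above 4 in size. The number of reads behind a value is unknown.

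The called windows of distal chromosome 16 came almost wholly from a pair of deletions. At an adjusted p of at most 0.05 (limma, Benjamini-Hochberg over all windows of a deletion), 271 of 29788 pairs of a deletion and a distal window were called, 109 later and 162 earlier on musculus than in the other deletions. That is 0.91% of pairs, against 0.683% on chromosome 15, 0.828% on chromosome 17 and a background of 0.766% over all autosomes. ∆AOSN.BOSN12.COSN123 and ∆COSN12 held 233 of the 271 calls, or 86.0%. In the other 22 deletions 38 pairs were called, 0.139% of those tested, with 0.227% on chromosome 15 and 0.145% on chromosome 17. No distal window was called in 16 of the 24 deletions and 1 window was called in 3.

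For ∆AOSN.BOSN12.COSN123 only clone D6 had values, as clone B8 is among the samples but had no matching column. D6 had 121 distal windows called, 49 later and 72 earlier. This was 9.67% of 1251 windows, with 7.68% on chromosome 15, 8.62% on chromosome 17 and 8.2% over all autosomes. Calls in this clone were thus spread over all 3 chromosomes. It is 1 clone with 1 library, so the spread behind its p-values comes from the clones of other deletions and its own was not measured, here and at each gene named for it. The 3 clones of ∆COSN12 had 112 distal windows called, 43 later and 69 earlier. That was 8.95% of windows, with 3.60% on chromosome 15, 7.92% on chromosome 17 and 5.98% over all autosomes. Its share on distal chromosome 16 was thus close to that on chromosome 17 and above that on chromosome 15.

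The remaining deletions had few calls anywhere. ∆CL20k had 18 distal windows called, 1.45%, against 1.55% over all autosomes. ∆A.BOSN12.COSN123 had 11, 0.879%, against 0.757%, and ∆BOSN1.COSN123 had 6, 0.480%, against 0.282% over all autosomes and 0.561% on chromosome 17. The deletion with the deepest delay at the Dppa domain, ∆A.B.COSN123 (clone 2E.1), had no distal window called and 14 calls inside the interval. They were all of its calls among the 33061 of 36999 autosomal windows that could be tested for it. As it is 1 clone, its own spread between clones was not measured. ∆COSN1 likewise had 14 calls, each of them inside the interval. The share of windows called on distal chromosome 16 was above both chromosome 15 and chromosome 17 in 3 deletions, ∆AOSN.BOSN12.COSN123, ∆COSN12 and, through 1 window, ∆Z.AOSN.COSN123.

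**Figure D1:**
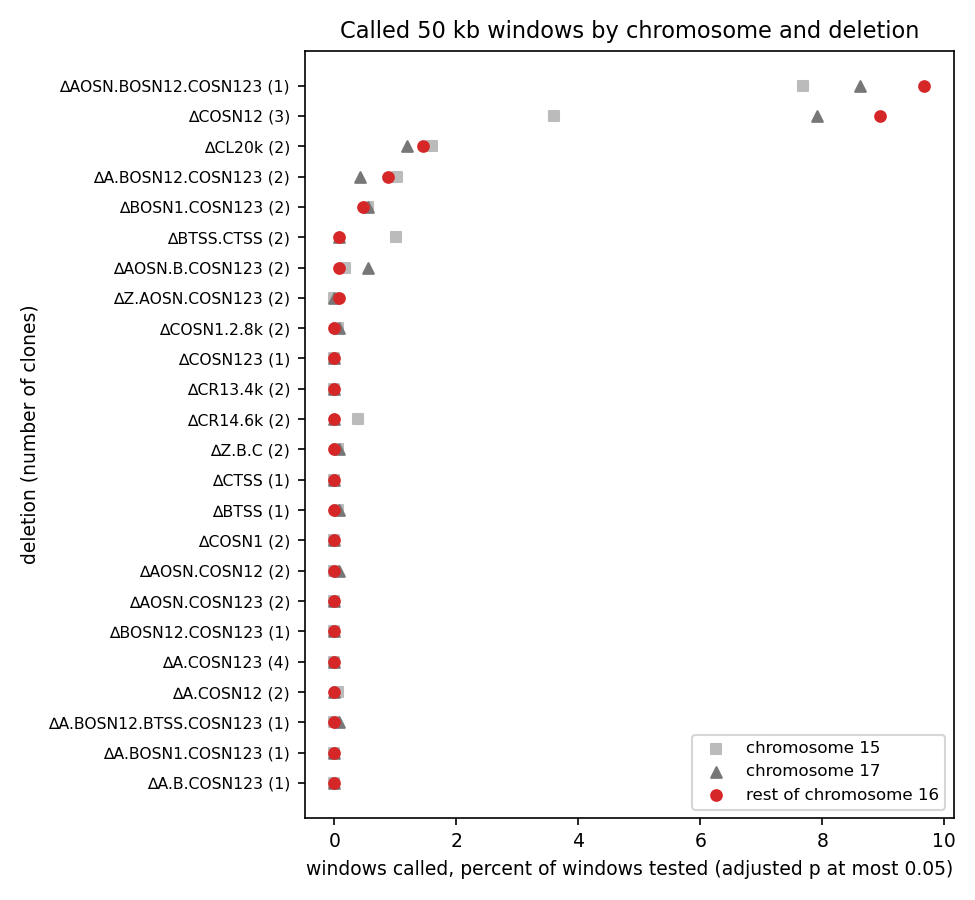
Percent of tested 50 kb windows called (x axis) for each deletion (y axis, number of clones in brackets) on the rest of chromosome 16 (red), chromosome 15 (light squares) and chromosome 17 (dark triangles). ∆AOSN.BOSN12.COSN123 and ∆COSN12 stand at 9.67% and 8.95% on chromosome 16, with chromosome 17 at 8.62% and 7.92%, and the other deletions are at 1.45% or less there.

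The calls can be followed along the chromosome. In ∆A.B.COSN123 the musculus homolog was later over the Dppa domain, with a mean residual of -0.76 over 47.5 to 49.5 Mb, and its mean residual over all distal windows was -0.0017. In ∆CL20k and ∆COSN12 the mean residual over 47.5 to 49.5 Mb was 0.33 and 0.19, relative to a mean that includes deletions with a later domain. In ∆AOSN.BOSN12.COSN123 the scatter reached along the whole chromosome.

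**Figure D2:**
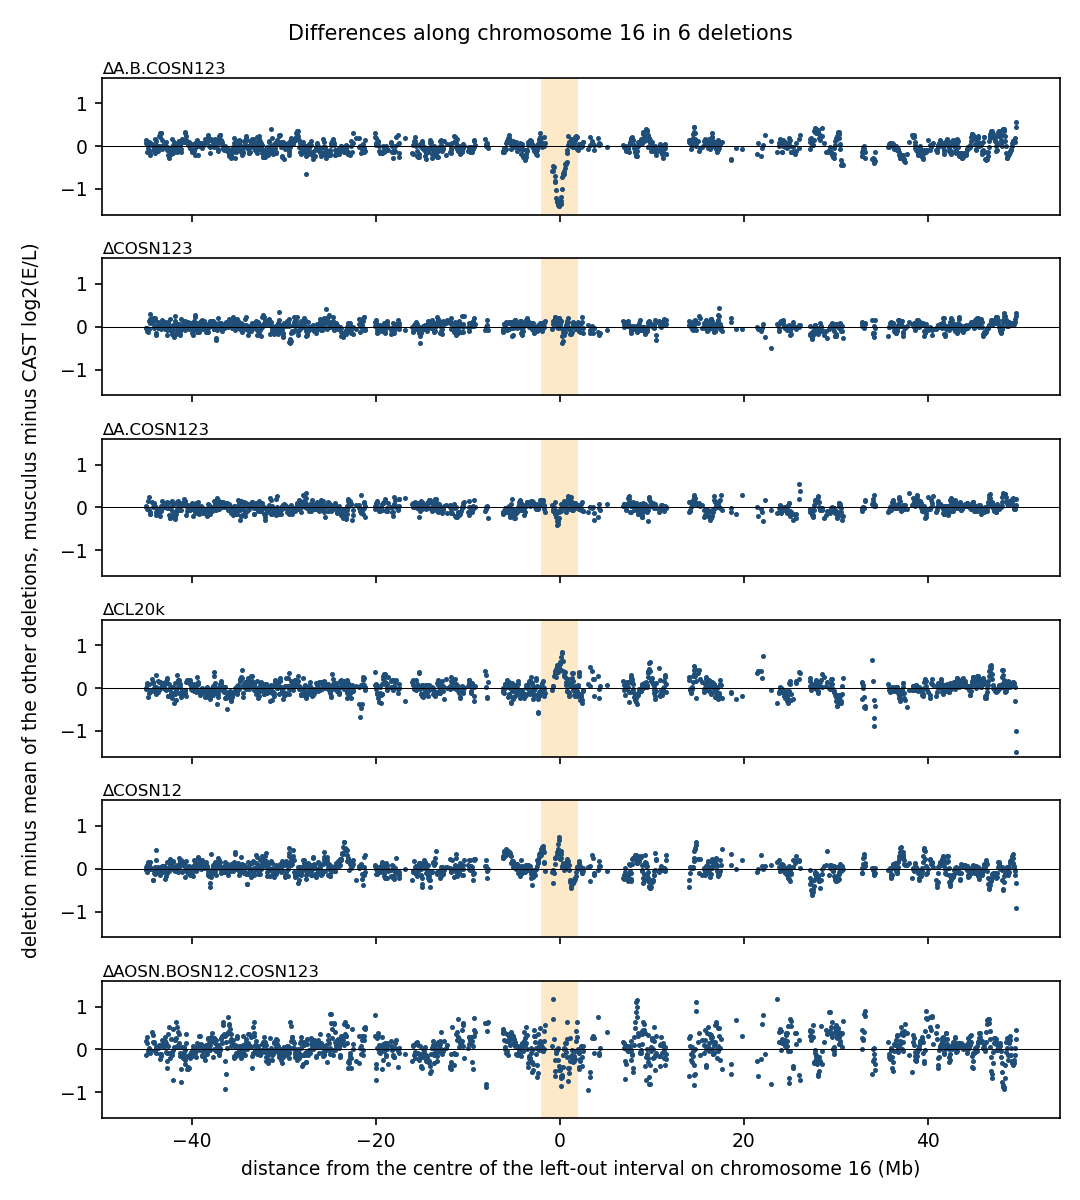
Difference of each 50 kb window of chromosome 16 (y axis, musculus minus CAST log2(E/L), deletion minus the mean of the other deletions) by its distance from the centre of the interval left out (x axis, Mb, interval shaded) in 6 deletions. Points beyond 1.5 are drawn at 1.5. The dip of ∆A.B.COSN123 stays inside the shaded interval, whereas ∆AOSN.BOSN12.COSN123 scatters throughout.

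The size of the residual, as its root mean square (RMS) over windows, was slightly smaller on distal chromosome 16 than on chromosomes 15 and 17. Over 42 clones it was 0.109 to 0.304 (median 0.183) on distal chromosome 16, 0.111 to 0.282 (median 0.187) on chromosome 15 and 0.112 to 0.290 (median 0.188) on chromosome 17. Chromosome 16 was below both others in 25 clones and above both in 9. The mean excess of chromosome 16 over the mean of the others was -0.0066 ± 0.013 (SD, n = 42), a two-sided permutation p of 0.0022 over clones by sign flips. The sign depended on the reference, since against all other autosomes the excess was 0.0037 with a permutation p of 0.0556. The SD between replicates of 1 clone was below that on both other chromosomes in ∆A.B.COSN123 2E.1, both ∆AOSN.B.COSN123 clones and ∆CTSS C12. In 2E.1 it was 0.139 against 0.157 and 0.161, and in ∆CTSS C12 0.235 against 0.256 and 0.253. In ∆COSN123 A10 and ∆A.BOSN12.BTSS.COSN123 C4 it lay between the others. Whether this spread accounts for the excess was not tested.

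The largest residuals on distal chromosome 16 were again in D6 of ∆AOSN.BOSN12.COSN123 (0.304) and in clones C6 and B6 of ∆COSN12 (0.275 and 0.254). These clones were high on chromosomes 15 and 17 too, at 0.282 and 0.290 in D6, 0.245 and 0.278 in C6 and 0.238 and 0.260 in B6. Chromosome 16 was above both in D6, and between them in C6 and B6. The lowest, 0.109, was in A10 of ∆COSN123, a mean of 4 libraries.

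**Figure D3:**
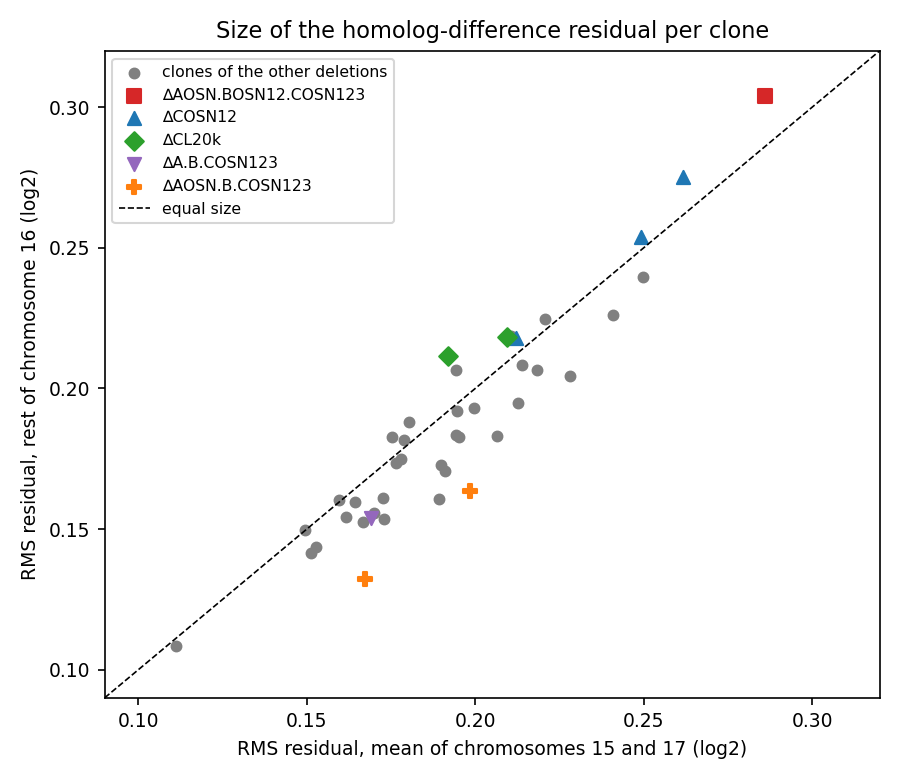
RMS residual on the rest of chromosome 16 (y axis) against the mean of chromosomes 15 and 17 (x axis), both on the log2 scale, 1 point per clone, with the line of equal size dashed. The 42 clones lie along the line, with ∆AOSN.BOSN12.COSN123 at 0.304 on chromosome 16 and both ∆AOSN.B.COSN123 clones below the line.

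When each deletion's excess was set against all other clones by an exact two-sided permutation test, 1 of 24 deletions passed after Benjamini-Hochberg adjustment. This was ∆AOSN.B.COSN123, whose clones 1A.4 and 5A.2 had RMS residuals of 0.163 and 0.132 on distal chromosome 16. The means of chromosomes 15 and 17 were 0.199 and 0.167. Chromosome 15 alone had 0.19 and 0.15 and chromosome 17 had 0.207 and 0.184, so chromosome 17 stood farther above chromosome 16. The excess was thus below 0 in both clones, -0.035 in the mean, and 0.030 under that of the other clones (exact permutation p = 0.00116, adjusted p = 0.0279). The p is the smallest that 2 of 42 clones allow. The result did not pass with the mean absolute residual or with only windows that every clone had. With either clone left out it could not pass, as 1 clone remained. Before adjustment 3 deletions had p at or under 0.05, the others being ∆CL20k, with an excess of 0.014 ± 0.0076 (SD, n = 2, exact permutation adjusted p = 0.209), and ∆COSN12, with 0.0080 ± 0.0049 (SD, n = 3, exact permutation adjusted p = 0.361). A deletion with 1 clone cannot go below p = 0.0238 before adjustment. At the p-values of the other deletions that does not pass, so the test could not call these deletions.

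No deletion's shift of distal chromosome 16 as a whole passed the test. The mean residual there minus that on chromosomes 15 and 17 ran from -0.044 (∆A.COSN123 B7) to 0.057 (∆AOSN.BOSN12.COSN123 D6) over 42 clones, with a median of -0.0067, and was below 0 in 31 clones. Of 24 deletions 0 passed the exact permutation test after adjustment, the lowest adjusted p being 0.286, and 2 had p at or under 0.05 before it. Those with 1 clone could not have passed, so the test leaves their shift undecided. The 2 deletions at or under 0.05 before adjustment were ∆A.COSN123 and ∆AOSN.BOSN12.COSN123. The former had -0.024 ± 0.014 (SD, n = 4, exact permutation p = 0.0133). The p of the latter, 0.0238, is the smallest exact permutation p for 1 clone. All 4 clones of ∆A.COSN123 were under the reference chromosomes, by 0.014 to 0.044, while ∆A.B.COSN123, with -0.76 at the domain, stood 0.023 above them.

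No relation between the delay at the Dppa domain and the timing of the rest of the chromosome passed the test. Over 42 clones the mean residual at 47.5 to 49.5 Mb ran from -0.76 to 0.47. Its relation to the RMS excess had Pearson r = 0.24 (permutation p = 0.131, adjusted 0.335) and Spearman rho = 0.23 (permutation p = 0.137, adjusted 0.214). With the signed shift r was -0.039 (permutation p = 0.803, adjusted 0.803) and rho 0.21 (permutation p = 0.184, adjusted 0.214). With the mean residual of the windows within 5 Mb of the interval r was 0.19 (permutation p = 0.223, adjusted 0.335) and rho 0.20 (permutation p = 0.214, adjusted 0.214). These 3 relations are one family. Without the 2 clones farthest from the median, ∆A.B.COSN123 2E.1 and ∆A.BOSN12.COSN123 C11, r was 0.21, 0.092 and 0.24, each with a permutation p of 0.131 or more.

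The clones form 2 groups by genotype, and the relation was looked at inside each. The 26 clones without any of the 3 C OSN sites, ∆CR13.4k and ∆CR14.6k among them, had a mean residual of -0.76 to 0.26 at the domain (median -0.059) and the other 16 had -0.065 to 0.47 (median 0.21). In the first group r was 0.31, -0.22 and -0.017 for the RMS excess, the signed shift and the near windows (permutation p = 0.125, 0.271 and 0.936). For the RMS excess rho was 0.42 there (permutation p = 0.0342, adjusted 0.205 over the 6 values of the groups), the clones with the later domain having the smaller excess. In the second group r was 0.14, -0.044 and 0.032 (permutation p = 0.614, 0.873 and 0.909). With ∆CR13.4k and ∆CR14.6k counted in the other group, rho for the RMS excess was 0.42 over 22 clones (permutation p = 0.0545).

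The mean RMS difference between windows near the interval and those far from it was within the spread between clones. The RMS residual within 5 Mb of the interval had a median of 0.168 and that of the remaining distal windows 0.182. The mean difference was -0.0063 ± 0.031 (SD, n = 42), lower near the interval in 28 of 42 clones (two-sided permutation p = 0.187). With libraries in place of clones it was -0.0087 with a permutation p of 0.0478, which is again a smaller residual near the domain. In bands of 5 Mb the median RMS over clones was 0.159 to the left and 0.194 to the right next to the interval, and between 0.158 and 0.231 farther out. The share of pairs called next to the interval was 1.57% to the left (32 of 2040) and 1.15% to the right (7 of 608), against 0.91% of all distal pairs, and it was up to 1.85% in a band farther out. Without ∆AOSN.BOSN12.COSN123 and ∆COSN12 these counts were 4 and 3. A run of 5 windows of ∆COSN12 from 46.25 to 46.5 Mb ended at the edge of the interval and was higher by 0.37 (adjusted p 0.00149 to 0.0317, limma).

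**Figure D4:**
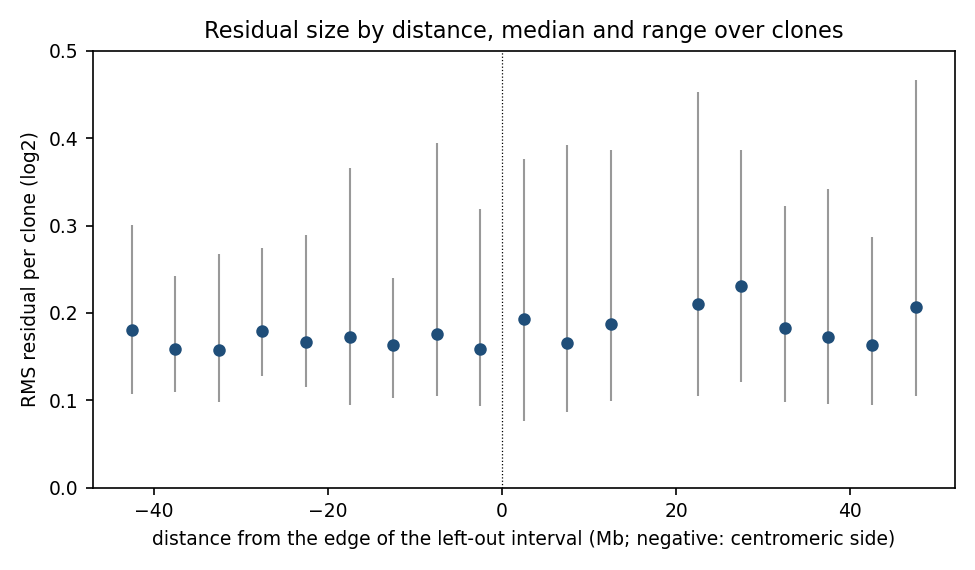
Median RMS residual over 42 clones (points, log2) in 5 Mb bands by distance from the edge of the interval left out (x axis, Mb), with bars from the lowest to the highest clone. Bands with fewer than 20 windows are not drawn. The medians next to the interval, 0.159 and 0.194, lie within the range of the other bands, 0.158 to 0.231.

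Called windows fell into 132 runs of neighbouring windows of 1 direction, 73 of them a single window, and lay mostly in late replicating DNA. Of 228 distal windows called in any deletion, 173 had a mean log2(E/L) below 0, or 75.9%, against 601 of all 1251, or 48.0%. On chromosome 15 it was 68.2% of called windows against 45.9% and on chromosome 17 it was 71.8% against 41.3%, so the lean to late windows was seen on all 3 chromosomes. Either homolog could carry the difference. In ∆COSN12 the musculus homolog's departure from the other deletions was larger than the CAST homolog's in 64 of 112 called windows and in ∆AOSN.BOSN12.COSN123 in 63 of 121. In ∆BOSN1.COSN123 it was so in 0 of 6 windows, all called lower. Both of its clones had a mean residual below 0 on distal chromosome 16 and on chromosomes 15 and 17. It was -0.091, -0.090 and -0.091 in C4 and -0.108, -0.113 and -0.080 in E6. The medians over 42 clones were 0.007, 0.011 and 0.0139. Clones of other deletions were low as well, ∆BOSN12.COSN123 A2 at -0.0856, -0.0805 and -0.0989 and ∆AOSN.COSN12 F3 at -0.0716, -0.0745 and -0.1103. For ∆BOSN1.COSN123, 35071 of 36999 autosomal windows could be tested. The cause of these low values was not tested.

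The longest run, which was picked out after its values were seen, lay at chr16:42350001-43150000 in ∆COSN12 and overlaps Zbtb20, a zinc finger repressor gene active in the developing brain and liver. All 16 of its called windows were earlier on musculus relative to CAST, by 0.38 on average (mean SE 0.090, adjusted p 0.000613 to 0.0445, limma). The homolog difference was 0.34 in clone B6, 0.64 in C6 and 0.46 in D3. The other 39 clones ran from -0.20 to 0.36 with a median of 0.090, so B6 was inside their range and C6 and D3 above it. Of the mean difference, 0.23 came from an earlier musculus homolog and -0.14 from a later CAST homolog. Both ∆BTSS.CTSS clones and both ∆AOSN.B.COSN123 clones were the next highest.

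**Figure D5:**
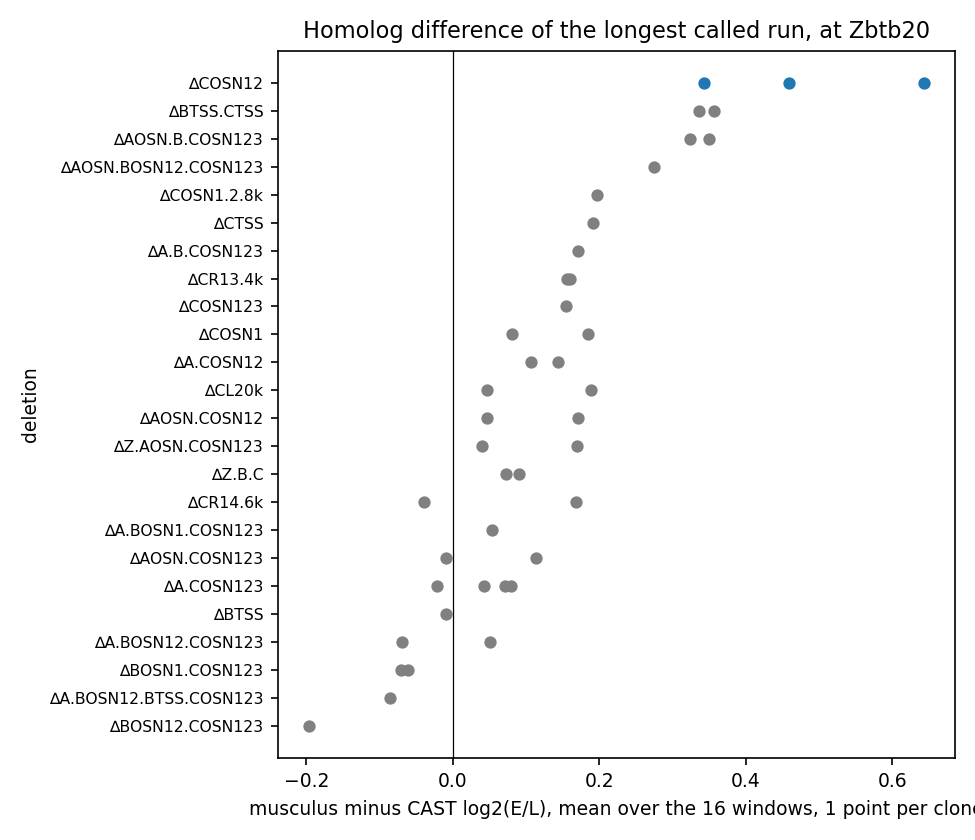
Mean musculus minus CAST log2(E/L) over the 16 windows of the run at Zbtb20 (x axis), 1 point per clone, by deletion (y axis). The ∆COSN12 clones (blue) stand at 0.34, 0.46 and 0.64, and the highest of the other 39 clones is at 0.36.

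Further long runs were also in ∆COSN12. At chr16:24800001-25400000, over Lpp, which encodes an adhesion and cytoskeleton protein, and Tprg, 12 windows were higher by 0.45 on average (adjusted p 9.59e-07 to 0.0419, limma). The clones stood at 0.073 to 0.29 against -0.55 to 0.12 in 39 others (median -0.31). Both homologs were later than in the other deletions there, musculus by -0.24 and CAST by -0.70. At chr16:58150001-58650000, over Dcbld2 and St3gal6, the latter a sialyltransferase gene, 9 windows were lower by 0.36 (adjusted p 0.00118 to 0.0359, limma), and the clones, at -0.64 to -0.46, lay below the whole range of the 39 others, -0.40 to 0.11.

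By the size of the difference, the foremost runs were short and often rested on 1 value. At chr16:98050001-98100000, near the end of the chromosome and over the gene A630089N07Rik, both ∆CL20k clones had a homolog difference far below 0, -1.65 in clone 49 and -2.78 in clone 85, against -1.46 to 1.33 in 34 other clones (difference -2.27, SE 0.38, adjusted p = 0.00496, limma). Without clone 85 the difference was -1.71 and was not called. At chr16:31050001-31100000, over exons of Xxylt1, a xylosyltransferase gene, and Acap2, the ∆Z.AOSN.COSN123 clones gave -2.35 (A9) and -0.29 (B4). The CAST value of A9 was 3.51 and that of B4 1.62, and without A9 the difference was -0.46 and was not called. At chr16:82650001-82700000, with no protein-coding gene, the ∆CL20k call (-0.88, adjusted p = 0.0108, limma) was from clone 49 only, as clone 85 had no musculus value.

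In D6 of ∆AOSN.BOSN12.COSN123 the largest differences were at chr16:72100001-72150000 (1.17, adjusted p = 5.93e-05, limma) and chr16:63250001-63350000 (1.01, adjusted p 0.000174 to 0.00607, limma). Neither window set overlaps a protein-coding gene, and both are late, with a mean log2(E/L) of -1.46 and -1.11. The homolog difference of D6 was 1.15 and 0.72 there, above the highest other clone in both, 0.37 and 0.39. ∆COSN12 was called in an overlapping run, chr16:63150001-63350000 (0.53, adjusted p 0.00085 to 0.0419, limma), but its clones C6 (0.033) and B6 (0.071) were within the range of the others, -0.86 to 0.083.

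The remaining runs by the same rule had groups that overlapped. ∆A.BOSN12.COSN123 was higher at chr16:6050001-6150000, inside an intron of the neuronal splicing regulator Rbfox1, by 0.65 (adjusted p 0.00367 to 0.023, limma), with 0.54 in A6 and 0.89 in C11 against -0.54 to 0.55 elsewhere. It was also higher at chr16:89400001-89500000, over the keratin-associated protein genes Krtap6-2, Krtap21-1 and Krtap8-1, by 0.59 (adjusted p 0.0107 to 0.036, limma), where A6 stood at 0.021 and C11 at 0.59. ∆BOSN1.COSN123 was lower at chr16:95000001-95050000 by 0.53 (adjusted p = 0.043, limma), and ∆BTSS.CTSS was higher at chr16:42900001-42950000, in Zbtb20, by 0.53 (adjusted p = 0.0424, limma). These last calls were lost in 25 and 22 of the alternatives, leaving out single clones of other deletions among them. The mean residual of both ∆BOSN1.COSN123 clones was below 0 on chromosomes 15 and 17 too.

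A few regions were called in several deletions and not in 1 direction. Of the 228 windows called in any deletion, 38 were called in 2 or more, and 21 of these in both directions. At chr16:95000001-95400000, over the potassium channel gene Kcnj15 and part of the ETS factor gene Erg, the mean homolog difference was -0.22 and -0.16 in the ∆BOSN1.COSN123 clones. It was -0.24 to -0.057 in those of ∆COSN12. It was 0.51 and 0.66 in the ∆CL20k clones and 0.45 in D6 of ∆AOSN.BOSN12.COSN123. At chr16:58150001-58400000 it was -0.75 to -0.51 in the ∆COSN12 clones, -0.72 in D6 and 0.16 and 0.24 in the ∆CL20k clones. ∆A.BOSN12.COSN123 was called higher in 1 window there.

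Among the genes left of the Dppa domain, 4 of 192 pairs of a deletion and a gene's start window were called, 3 lower and 1 higher, which is 2.08% against 0.91% of all distal pairs. Plcxd2, a phospholipase-like gene, was lower in ∆AOSN.BOSN12.COSN123 by 0.65 (adjusted p = 0.000498, limma), with D6 at -0.43 against -0.043 to 0.56 in 41 clones. Cd96, an immunoglobulin family receptor gene, was lower in ∆CL20k by 0.58 (adjusted p = 0.0134, limma), with clones at -0.71 and -0.22 against -0.20 to 0.70, and without clone 49 it was -0.34 and not called. Cd200 was lower and the adhesion gene Nectin3 higher in ∆COSN12 (-0.38 and 0.46). Right of the domain 0 of 142 pairs were called. The largest differences there were -0.49 at Cblb, a ubiquitin ligase gene, in ∆A.BOSN12.BTSS.COSN123 and -0.38 at Impg2, a retinal matrix gene, in ∆CTSS (adjusted p = 0.841 and 0.898, limma).

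Long neuronal genes had 2 of 188 pairs called, 1.06% against 0.91% of all distal pairs, both higher and both in D6 of ∆AOSN.BOSN12.COSN123. Grik1, a kainate receptor gene, was higher by 0.90 (adjusted p = 0.000964, limma), at 0.90 in D6 against -0.39 to 0.22 in 35 clones. Kcnj6, a potassium channel gene, was higher by 0.68 (adjusted p = 0.00384, limma), at 1.38 against 0.26 to 1.27 in 41 clones. Of 13 such genes 8 had a tested window, and Lsamp, Epha3, Epha6, Cadm2 and Ncam2 did not.

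Developmental transcription factors had 2 of 312 pairs called, both higher, or 0.641% against 0.91%. Bcl6, a transcriptional repressor gene, was higher by 0.59 in ∆AOSN.BOSN12.COSN123, with D6 at 0.36 and every one of 41 other clones at or below 0. At the start of Zbtb20 the largest difference was 0.42 in ∆BTSS.CTSS (adjusted p = 0.115, limma) and the call was in ∆COSN12 (0.41). Chromatin, replication, repair and general genes had 0 of 379 pairs called, against 0.91% of all distal pairs. Their windows had a median log2(E/L) of 1.25 against 0.085 over all distal windows, the latest being that of App, an amyloid precursor gene, at -0.30. The largest differences there were -0.70 at Dyrk1a, a kinase gene, in ∆CR13.4k and 0.48 at the adaptor gene Crkl in ∆A.BOSN1.COSN123 (adjusted p = 0.537 and 0.799, limma). The median size of a difference was 0.080 to 0.103 in the 5 gene lists and 0.092 over all distal windows.

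The standing differences between the homologs, which the subtraction removes, reached further than most of those between deletions. In 57 of 1251 distal windows, 4.56%, the mean musculus minus CAST difference over clones was 0.5 or more in size, earlier on CAST in 38 and earlier on musculus in 19. The share was 6.22% on chromosome 15, 9.95% on chromosome 17 and 6.52% over all autosomes. The widest such region was chr16:78300001-79100000, over Tmprss15, Cxadr, the gene for a virus receptor of cell junctions, and Btg3. CAST was earlier there in every one of 42 clones (-1.45 to -0.57, median -1.02), with log2(E/L) at -0.35 on musculus and 0.61 on CAST. Conversely, musculus was earlier at chr16:19050001-19450000, over the olfactory receptor genes Olfr164 and Olfr165, by at least 0.61 in each of the 42 clones (median 1.16). In these regions 1 and 3 pairs of a deletion and a window were called, and 7, 6 and 4 in those at Dscam, Kcnj6 and Gap43. Over all 57 windows it was 27 of 1354 pairs, or 1.99%, against 0.91% of all distal pairs.

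Clones of 1 deletion had residual profiles that were alike to a small degree, on chromosome 16 no more than elsewhere. Across 1251 distal windows, which are smoothed and so share signal with their neighbours, the 22 pairs of clones of 1 deletion had r of 0.044 to 0.40 with a median of 0.19. The median was 0.19 on chromosome 15 and 0.20 on chromosome 17, and it was -0.027 over 839 pairs of clones of different deletions on distal chromosome 16. The 3 pairs of ∆COSN12 had r of 0.22 to 0.28 on distal chromosome 16, 0.095 to 0.19 on chromosome 15 and 0.30 to 0.31 on chromosome 17. Clones of a deletion share what was subtracted and, like many clones of different deletions, a parent line.

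Clones with a deletion on the CAST homolog, kept out of the main fits, gave values of the same order. In CR11.8k clone 50 and CTSS clone C4, deleted on CAST only, the RMS residual on distal chromosome 16 was 0.146 and 0.143 and the excess 0.0036 and 0.0002. Their residual at 47.5 to 49.5 Mb was 0.59 and 0.29. In 8 clones with a deletion on both homologs the RMS was 0.113 to 0.314 and the excess -0.025 to 0.0072. The highest, 0.314 and 0.306, were in clones A1 and A8 of ATSS.BTSS.CTSS, which had 0.310 and 0.308 on chromosome 15.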

How the data were processed

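E/L Repli-seq of F121-9 clones was analysed from 1 deposited table of log2(E/L) values in 50 kb windows for each homolog, 129 (called musculus in the text) and CAST. Per the study's methods, the authors aligned reads to an N-masked mm10 with bowtie2, assigned them to a homolog with SNPsplit, scaled and quantile-normalised the log2 ratios and smoothed them by loess over 300 kb, so neighbouring windows are not independent. Trim Galore, cutadapt and bedtools are named in the submitters' processing notes. The 138 columns hold 66 libraries of 53 clones, and 5 early-fraction samples without a matching column were not analysed here.

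Libraries of a clone were averaged. The 129 minus CAST difference was fitted per window with limma 3.58.1 (R 4.3.3, moderated variances, each deletion against the mean of the others), adjusted by Benjamini-Hochberg over all autosomal windows. Fits and permutation tests (100000 resamples or exact) were tested on simulated data. Genes are from GENCODE vM21. The labels give replicate numbers only, and the study describes separate cultures for ∆COSN123. Over 55 pairs of clones, the differences between replicates 1 and 2 correlated at -0.108 to 0.177, which does not tell what the numbers mark. Named runs are the 10 called runs largest in mean difference, at most 2 a deletion (gaps of 1 window joined), with the 2 genes of each list that differed most, and gene windows hold the annotated start. The members, lists and tests were chosen with earlier results of these data known. Alternatives included other weights, filters, centring, thresholds, references and leaving out each clone. Many clones share a parent line, across deletions too, so p-values measure the spread between these clones and may be too small.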

Additional observations from a re-analysis of the deposited data

Results flagged for a closer look

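In several windows of distal chromosome 16 that were called in a pair of deletions, every clone of one deletion lay below and every clone of the other above the mean of the other deletions. The difference between the deletions was not tested, and each value below is the mean residual of the 2 or 3 clones of a deletion. At 12.75 Mb it was -0.312 in ∆CL20k and 0.376 in ∆A.BOSN12.COSN123, and at 23.2 Mb it was -0.335 in ∆BOSN1.COSN123 and 0.215 in ∆COSN12. Between 58.15 and 58.3 Mb ∆COSN12 stood at -0.435, -0.44 and -0.44 and ∆CL20k at 0.439, 0.603 and 0.41. At 58.35 Mb it was -0.421 in ∆COSN12 and 0.528 in ∆A.BOSN12.COSN123, and at 89.4 and 89.45 Mb it was -0.368 and -0.431 in ∆COSN12 and 0.689 and 0.487 in ∆A.BOSN12.COSN123. Between 95.15 and 95.35 Mb ∆CL20k was higher, at 0.414, 0.443, 0.544 and 0.461, with ∆BOSN1.COSN123 at -0.481 and -0.451 in the first pair of these windows and ∆COSN12 at -0.383, -0.285 and -0.272 at 95.15, 95.3 and 95.35 Mb. With clone D6 of ∆AOSN.BOSN12.COSN123 and other single values counted, 26 such pairs of deletions and windows were seen. None of the 6 measures tested in the 4 clones of ∆A.COSN123 had a clone that stood apart.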

How the results depend on the processing

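Over the results that answer a comparison, 99 values under alternatives other than leaving out a clone kept their direction and their side of the threshold, and those that did not follow here; the cause was not tested. The number of called pairs on distal chromosome 16, 271, became 107 at a threshold of 0.01 and 131 with a difference of at least 0.5 required. It was 411 with the 8 clones deleted on both homologs added and 44 without ∆AOSN.BOSN12.COSN123 and ∆COSN12. When each clone was left out in turn it was 140 to 290, the 140 being without D6. With libraries as units and the replicate block it was 278, so the block did not change the count by much. The number of deletions with a higher share of calls on distal chromosome 16 than on both others, 3, became 1 with windows that every clone had, 5 with libraries, with array weights and with the replicate block, and 2 to 5 with a clone left out (5 without ∆CR14.6k 53 or without ∆CTSS C12). The excess of chromosome 16 was 0.0037 against all other autosomes and -0.0072 to -0.0052 with a clone left out. The count of deletions whose excess passed, 1, was 0 with the mean absolute residual and with windows that every clone had. It was also 0 with the clones deleted on both homologs added, and 0 to 1 with a clone left out. The 0 with a clone left out was without 1A.4 or 5A.2 of ∆AOSN.B.COSN123, where the 1 clone left could not pass. The relation of the signed shift to the domain residual (r = -0.039) was 0.12 without windows of standing homolog difference, 0.11 without the clones lacking CAST chromosome 11, and -0.082 to 0.11 with a clone left out, being above 0 without ∆A.B.COSN123 2E.1 (0.11) or ∆AOSN.BOSN12.COSN123 D6 (0.036). The near minus far difference was -0.0087 with libraries (permutation p = 0.0478) and -0.0084 to -0.0035 with a clone left out, and the relations of the RMS excess and of the near windows kept their sign, at 0.18 to 0.31 and 0.13 to 0.23 with a clone left out and 0.13 to 0.28 and 0.056 to 0.34 under the other alternatives. Of the named runs and genes, 21 values under other alternatives and 48 with a clone left out lost the call and none turned sign, 25 of the values that lost it being those of ∆BOSN1.COSN123 at 95.0 Mb and 22 those of ∆BTSS.CTSS at 42.9 Mb. The removal of windows above 4 in size, of clones without CAST chromosome 11 of the pair of deletions, and the grouping by label alone, were chosen after seeing the data.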
